A study of Mus musculus with 33 samples.

Results

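The amino acid arm of the integrated stress response, the gene group around the transcription factor ATF4, was followed through cultured mouse hippocampal neural stem cells as a set of 33 genes. The members were chosen by gene symbol, as genes known to respond to ATF4 or to charge cytosolic tRNA. All 33 were present among the 26621 symbols of each table. They comprised 6 regulators (Atf4, Ddit3, Trib3, Cebpb, Cebpg, Nupr1), 3 stress effectors (Chac1, Sesn2, Stc2), 6 genes of asparagine, serine and one-carbon synthesis (Asns, Phgdh, Psat1, Psph, Shmt2, Mthfd2), 2 genes of proline synthesis (Aldh18a1, Pycr1), 4 amino acid transporter genes (Slc7a11, Slc7a5, Slc3a2, Slc7a1) and 12 cytosolic aminoacyl-tRNA synthetases (Aars, Cars, Eprs, Gars, Iars, Lars, Mars, Nars, Sars, Tars, Wars, Yars).

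The cells were labelled as neural stem cells of hippocampus at postnatal day 0.5, grown on poly-D-lysine in DMEM/F12 with B27, N2, bFGF and EGF. RNA-seq covered 18 libraries, 3 for each of the genotype labels Nestin-WT and Nestin-cKO (for Ythdf2, which encodes an m6A reader) collected 0, 2 and 4 h after transcription was stopped with actinomycin D (5 µM). From untreated Nestin-WT cells came 3 m6A antibody pull-downs with 3 inputs, and 3 YTHDF2 antibody pull-downs with 3 IgG pull-downs and 3 inputs. The labels name Nestin, a gene of neural progenitors, with the knockout, and do not describe the Cre line, the animals behind each culture or any pooling. In the YTHDF2 series, a library titled Input is described as YTHDF2 and the reverse; the descriptions, which the count columns carry, were used here. Total counts per library were 10257329 to 21353383 (RNA-seq), 12892222 to 28334300 (m6A series) and 8419106 to 23097887 (YTHDF2 series).

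Ythdf2 itself went against the genotype label. Its level at 0 h, as CPM (counts scaled to a common library size by TMM), was 219, 253 and 258 in the 3 libraries labelled WT and 3117, 1035 and 736 in the 3 labelled cKO. It was higher in every library labelled cKO, at all 3 times, and the counts per gene do not show whether these transcripts lack a deleted exon. Every genotype direction given here is therefore between libraries by their label. Replicates 1 to 3 are given in that order throughout, and replicate 1 of the libraries labelled cKO at 0 h stood apart from the other two by its Ythdf2 level.

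When amino acids run short or unfolded protein loads the endoplasmic reticulum, kinases phosphorylate the initiation factor eIF2. Global translation then drops while the Atf4 message, which carries upstream open reading frames, is translated more. ATF4 pairs with C/EBP proteins at a composite promoter element and switches on genes that make, import and charge amino acids onto tRNA. The Atf4 message is therefore regulated in its translation as well as in its level.

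The composite element has the core TGATGNAA. A window of 300 bases, from 250 before to 50 after the annotated start, was given by RefSeq (GRCm38.p6) for 28 of the 33 members. Of these, 11 held the core on either strand (39.3%), against 1219 of 27025 genes with a window (4.51%). Because members were chosen as genes known to respond to ATF4 or to charge tRNA, these shares are a description and not a test. The 11 members held 13 matches, of which 9 read TGATGCAA, 3 TGATGAAA and 1 TGATGTAA. The stretches of 30 bases around the matches of 10 of these members are shown because they are the DNA feature that these members, of different function, share. They are written 5′ to 3′ on the strand that reads TGATGNAA, with the core in capitals. Chac1, Iars, Asns and Yars are the members that both hold the element and changed in a genotype or time comparison, and 6 others are shown beside them.
Chac1: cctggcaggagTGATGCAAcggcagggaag
Iars: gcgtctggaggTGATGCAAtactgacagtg
Asns: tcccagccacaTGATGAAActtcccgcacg
Yars: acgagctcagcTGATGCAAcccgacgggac
Trib3: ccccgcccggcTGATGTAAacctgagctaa
Nupr1: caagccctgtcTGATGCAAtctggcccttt
Pycr1: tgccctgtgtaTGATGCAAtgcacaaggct
Slc7a11: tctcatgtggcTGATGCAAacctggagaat
Slc7a11: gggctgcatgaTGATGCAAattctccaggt
Gars: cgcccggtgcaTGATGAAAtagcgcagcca
Tars: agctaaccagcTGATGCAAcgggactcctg

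The Chac1 stretch lies at chr2:119351038-119351067 on the minus strand, opposite to the gene, and the Asns stretch at chr6:7693214-7693243 on the minus strand, that of the gene. The Iars stretch at chr13:49682126-49682155 is on the minus strand, opposite to its gene, and its core covers bases 8 to 15 after the start site. In Yars the stretch at chr4:129189895-129189924 is on the plus strand of the gene, with the core at bases 4 to 11 after the start. The pair in Slc7a11 faces opposite ways and lies at chr3:50443661-50443690 (minus strand) and chr3:50443642-50443671 (plus strand). A match is a description of the letters. Windows of the other 17 members held none, and 5 members (Slc7a5, Cars, Lars, Nars, Wars) had no window.

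Before treatment the members spanned a wide range of abundance. Per transcript length, in the deposited TPM values (counts corrected for length and depth), the libraries labelled WT at 0 h held most of the phosphoserine aminotransferase Psat1 (468 ± 25.1 TPM, SD, n = 3) and of asparagine synthetase Asns (400.4 ± 24.4 TPM). The synthetase messages reached from 257 ± 3.01 TPM for Nars and 212 ± 20.7 TPM for Eprs down to 25.9 ± 4.44 TPM for Cars. Among regulators, Cebpg held 67.4 ± 3.49 TPM, Atf4 24.6 ± 1.55 TPM and Ddit3 21.4 ± 3.11 TPM. The stress effectors were low, with 0.501 ± 0.241 TPM for Chac1, 0.690 ± 0.636 TPM for Sesn2 and 1.19 ± 0.393 TPM for Stc2, as was the regulator Trib3 (0.278 ± 0.0538 TPM). Neighbours in this order, such as Nars and Psph (247 ± 12.5 TPM) or Wars (46.03 ± 7.04 TPM) and Gars (46.2 ± 2.66 TPM), did not differ beyond their spread.

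The first comparison asked how the genotype labels differed at 0 h. Of the 32 members with enough counts to test, 2 were higher (Cebpb, Slc7a5) and 3 lower (Iars, Eprs, Nars) in libraries labelled cKO at an adjusted p under 0.05. Over all 14029 genes tested, 7.71% were higher and 9.89% lower. The median log2 difference of the members was 0.0071, against -0.0053 over all genes; without cKO replicate 3 at 0 h it was -0.31 and without cKO replicate 1 it was 0.14, with -0.018 and -0.027 over all genes. In all, 4 members higher and 5 lower had an unadjusted p under 0.05, beside 2299 higher and 2555 lower of all genes tested (34.6% in either direction). Trib3, a pseudokinase induced by ATF4, was too low to test, at 0.270, 0.337 and 0.237 CPM in libraries labelled WT and 0.497, 0.450 and 1.67 CPM in those labelled cKO.

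Atf4 itself (chromosome 15, 80255184 to 80257545) was measured at 21.5, 21.3 and 20.1 CPM in libraries labelled WT and at 14.9, 19.7 and 27.00 CPM in those labelled cKO. The WT values fell inside the range of the cKO values, and the log2 difference was -0.029 ± 0.38, adjusted p = 0.966. Cebpb (chromosome 2, 167688915 to 167690432), a C/EBP factor that responds to inflammation, growth factors and stress, was at 1.01, 1.77 and 2.37 CPM in libraries labelled WT and 8.61, 7.36 and 5.42 CPM in those labelled cKO. All 3 libraries labelled cKO were above all 3 labelled WT (log2 difference 2.04 ± 0.57, adjusted p = 0.0228, the largest among the 32 tested members). Its adjusted p reached 0.13 when single libraries or cultures were left out, 6 of which ended the call.

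Ddit3 encodes CHOP, a factor of prolonged stress. It was at 10.5, 8.09 and 9.07 CPM in libraries labelled WT and at 4.72, 9.38 and 38.6 CPM in those labelled cKO, where replicate 3 alone was high. The difference did not pass the test (0.93 ± 0.70, adjusted p = 0.362). That culture also held the highest cKO values of Trib3, Chac1 (0.745, 0.826 and 1.83 CPM, against 0.472, 0.506 and 0.178 CPM in WT) and Sesn2 (0.414, 0.450 and 2.71 CPM). Nupr1, a small chromatin protein of the stress response, was at 7.62, 17.1 and 15.3 and 22.1, 23.7 and 39.6 CPM, with every library labelled cKO above every one labelled WT (1.10 ± 0.45, adjusted p = 0.0927).

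The transporters moved little. Slc7a5 encodes the light chain of the large neutral amino acid exchanger. It was at 45.9, 43.9 and 43.9 CPM in libraries labelled WT and 62.2, 59.6 and 62.8 CPM in those labelled cKO, with no overlap (0.47 ± 0.16, adjusted p = 0.0478). Leaving out a library or culture ended this call in 10 of 12 cases, with an adjusted p up to 0.331. Its partner Slc3a2, the shared heavy chain, was at 105, 123 and 111 and 121, 145 and 172 CPM (0.37 ± 0.17, adjusted p = 0.127). The cystine importer Slc7a11 was lowest in cKO replicate 1, at 4.64, 17.4 and 26.8 CPM against 13.4, 16.5 and 17.6 CPM (0.039 ± 0.55, adjusted p = 0.968).

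Among the 12 synthetases, none was higher (in edgeR or DESeq2, or at an unadjusted p under 0.05) and 3 were lower in libraries labelled cKO, with a median log2 difference of -0.21. Iars (chromosome 13, 49682130 to 49734267), which charges isoleucine, was at 200.5, 178 and 193 CPM in libraries labelled WT and 62.7, 91.5 and 113 CPM in those labelled cKO. The groups were far apart (-1.10 ± 0.22, adjusted p = 0.00374), and the highest adjusted p over the alternatives was 0.0613, reached by leaving out a whole WT culture. Eprs (chromosome 1, 185361417 to 185428360), the bifunctional glutamyl-prolyl synthetase, was at 538, 514 and 468 CPM and 336, 334 and 331 CPM, again without overlap (-0.60 ± 0.17, adjusted p = 0.023). Nars, which charges asparagine, was at 326, 333 and 351 CPM and 231, 233 and 252 CPM (-0.50 ± 0.16, adjusted p = 0.0432). Lars, at 292, 283 and 295 CPM and 96.5, 202 and 152 CPM, did not pass the test (-0.95 ± 0.33, adjusted p = 0.0525). Leaving out a library or culture ended the Eprs call in 9 of 12 cases and the Nars call in 10 of 12.

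**Figure D1:**
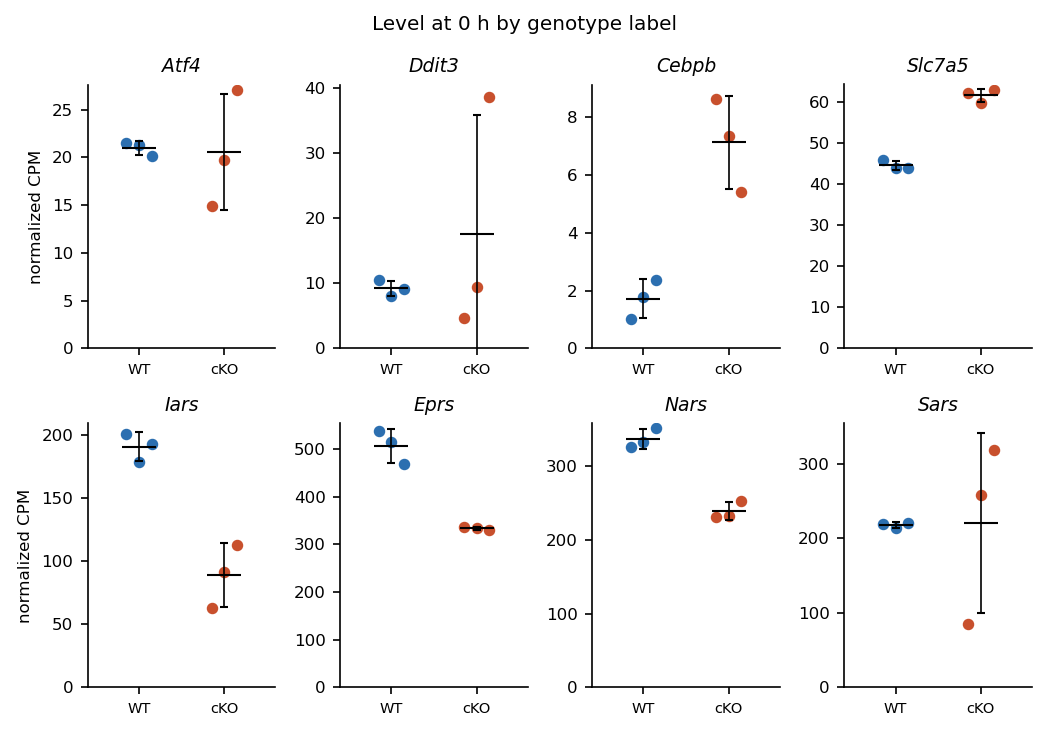
Normalized CPM at 0 h of 8 members, with Sars added as a member whose replicates spread widely; each point is 1 library, the bar is the mean and its error the SD (n = 3), and axes start at 0, which cuts the lower error bar of Ddit3. Cebpb and Slc7a5 are higher and Iars, Eprs and Nars lower in every library labelled cKO, while Atf4, Ddit3 and Sars overlap.

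None of the 6 asparagine, serine and one-carbon genes and neither proline gene passed at 0 h in edgeR or DESeq2, and 0 of these 8 had an unadjusted p under 0.05. The libraries labelled cKO differed among themselves more than those labelled WT. Replicate 1 was the low one, with Asns at 199.6, 378 and 355 CPM in replicates 1 to 3, Phgdh at 20.8, 54.4 and 54.2 CPM and the serine synthetase Sars at 85.7, 257 and 318 CPM. As a median over members of a group, in log2(CPM + 0.5) relative to the WT mean, the 12 synthetases were at -0.84, -0.21 and 0.094 and the regulators at 0.79, 0.034 and 1.46 in cKO replicates 1 to 3. Without replicate 1, the count of members at 0 h was 3 higher and 2 lower: Slc3a2 (0.48, adjusted p = 0.0434) and Sars (0.40, adjusted p = 0.0357) passed, Slc7a5 (0.46, adjusted p = 0.0562) and Nars (-0.47, adjusted p = 0.0661) no longer did. Over all genes, 1370 were then higher and 1476 lower.

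**Figure D2:**
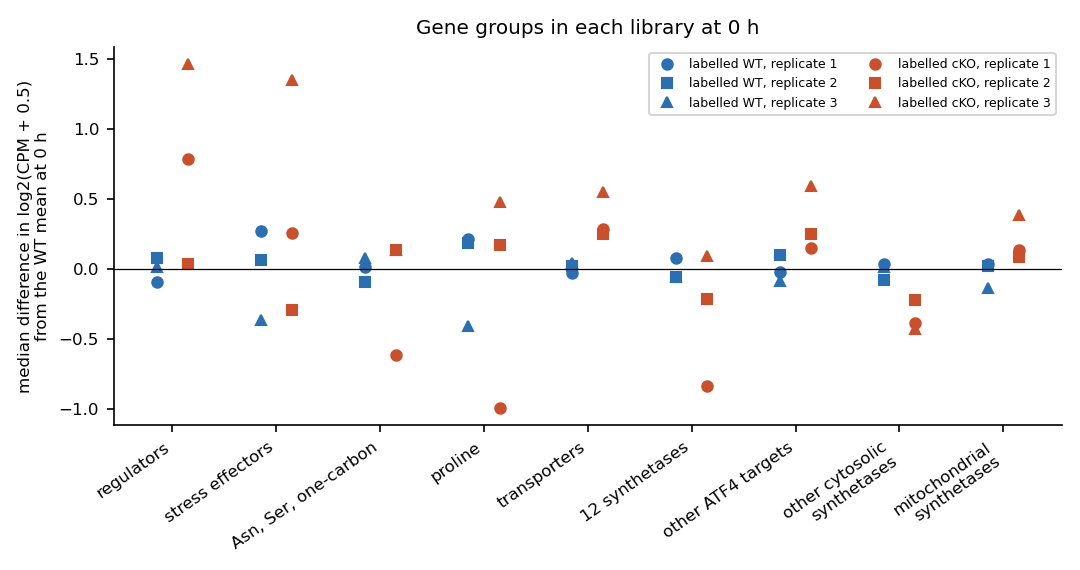
Median over the tested genes of each group of the difference in log2(CPM + 0.5) from the mean of the libraries labelled WT, in each of the 6 libraries at 0 h (colour: genotype label; symbol: replicate number). Among libraries labelled cKO, replicate 1 lies lowest for the synthetases, proline and asparagine, serine and one-carbon genes, and replicate 3 is the highest for the regulators and stress effectors.

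The rest of the pathway was read from further lists. Over all genes tested, 7.71% were higher and 9.89% lower. Among 25 tested other targets of ATF4, 6 were higher and 2 lower, with a median of 0.47. Cth, the cystathionine lyase of cysteine synthesis, was higher (0.86 ± 0.21, adjusted p = 0.013), as was the stress cytokine Gdf15 (4.53 ± 1.25, adjusted p = 0.0227). The glutamine transporter Slc38a2 (-1.13 ± 0.26, adjusted p = 0.00894) and the leucine transporter Slc43a1 (-1.96 ± 0.64, adjusted p = 0.0433) were lower. The 13 genes of eIF2 kinases, eIF2B and eIF2 phosphatase had a median of -0.15. Of 11 other cytosolic synthetase genes only Rars passed as lower (-0.56 ± 0.18, adjusted p = 0.0369), and 1 had a positive difference. Their median was -0.38, beside -0.21 for the 12 member synthetases. Of 17 mitochondrial synthetases only Aars2 passed, as higher (1.63 ± 0.54, adjusted p = 0.0462), with a median of 0.26. Of 17 chaperone and sensor genes of the endoplasmic reticulum, Dnajb9 (1.11 ± 0.35, adjusted p = 0.0391) and Manf (0.60 ± 0.20, adjusted p = 0.05) were higher.

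Markers of cell type moved with the genotype label at 0 h, where 7.71% of all genes were higher and 9.89% lower. Of 8 fibroblast markers tested, 6 were higher in libraries labelled cKO (median log2 difference 4.18); their summed level over the 9 listed was 2.83 to 7.16 CPM in libraries labelled WT and 26.7 to 79.2 CPM in those labelled cKO, with Dcn at 0.253 to 0.337 and 4.31 to 13.2 CPM. Of 10 neural stem markers 4 were lower and 1, Vim, was higher, and their sum was 12703 to 14599 CPM against 7261 to 11090.4 CPM. Neuronal (4 of 7), astrocyte (4 of 7) and oligodendrocyte lineage markers (5 of 8) included lower members as well, and Olig1 of the last list was higher (0.94 ± 0.28, adjusted p = 0.0316). The 5 microglial markers summed to 1.26 to 1.62 CPM in libraries labelled WT and 1.752 to 3.90 CPM in those labelled cKO, most of it P2ry12, with Csf1r and Tmem119 at 0 in all 6 libraries. The 5 endothelial markers summed to 1.36 to 3.29 and 0.662 to 2.95 CPM, with Kdr and Flt1 detected and Cldn5 at 0 in all 6. Sox2 (61.9 to 102 CPM over both labels) and Nes were detected in all of them. In bulk RNA, fewer cells of a type and less RNA per cell cannot be told apart, and the part of these markers in the differences of Cebpb, Slc7a5, Iars, Eprs and Nars was not tested.

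The second comparison followed the members through 4 h of transcription block. Levels here are shares of the remaining RNA, so a stable message rises when others decay. In libraries labelled WT, 5 of 32 members rose and 6 fell, beside 15.6% and 24.2% of all genes tested. In libraries labelled cKO, 10 rose and 6 fell, beside 12.1% and 18% of all genes. The members' median log2 change was 0.24 in WT and 0.41 in cKO, against 0.0049 and 0.0827 over all genes, under TMM scaling. Scaled by library size alone it was -0.099 and 0.16, on log2(TPM + 1) -0.26 and 0.0080, and scaled to ribosomal protein genes -0.49 and -0.36. Of the members that fell, 5 (Atf4, Cebpb, Cebpg, Iars and Slc7a1) fell under both labels. Of those that rose, 3 (Phgdh, Psph and Shmt2) did so under both. The share of all genes called under both labels was not counted, so these overlaps only describe the members.

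Of the 5 regulators tested, 3 (Atf4, Cebpb and Cebpg) fell under both labels, and Ddit3 and Nupr1 did not pass the test. Atf4 went from 21.5, 21.3 and 20.1 CPM at 0 h to 4.02, 4.95 and 5.18 at 2 h and 4.21, 2.96 and 4.27 at 4 h in libraries labelled WT (log2 change -2.45 ± 0.41, adjusted p = 0.000176). With the cKO label it went from 14.9, 19.7 and 27.00 to 4.55, 3.89 and 13.3 and 3.26, 4.10 and 7.45 CPM (-2.06 ± 0.40, adjusted p = 0.00102). Most of its loss was already there at 2 h, when 22.5% (WT) and 35.2% (cKO) of the 0 h mean was left. At 4 h the shares were 18.2% and 24.02%.

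Cebpb fell to 0.188, 0.0955 and 0.129 CPM at 4 h in libraries labelled WT (-3.53 ± 0.76, adjusted p = 0.00138) and 0.401, 0.448 and 1.38 CPM in those labelled cKO (-3.25 ± 0.61, adjusted p = 0.000658). Its 4 h share of the 0 h mean was 8.02% and 10.4%. Cebpg (chromosome 7, 35046422 to 35056566), a C/EBP factor that dimerizes with ATF4, fell from 147, 165 and 158 to 27.3, 26.8 and 38.1 CPM with the WT label (-2.35 ± 0.33, adjusted p = 2.87e-05). With the cKO label it fell from 282, 109 and 104 to 25.6, 23.5 and 41.4 CPM (-2.45 ± 0.33, adjusted p = 3.05e-05), and without cKO replicate 1 at 0 h, the highest library, the change was -1.82, adjusted p = 2.71e-05. The falls of Atf4, Cebpb and Cebpg passed the test under every alternative scaling, test, block and left-out library tried, with a highest adjusted p of 0.0379.

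Ddit3 fell less. It was at 4.46, 5.73 and 5.56 CPM at 4 h with the WT label (-0.81 ± 0.72, adjusted p = 0.394; with the culture as a block, adjusted p = 0.00378) and at 3.95, 7.87 and 21.7 CPM with the cKO label (-0.65 ± 0.70, adjusted p = 0.518), where replicate 3 stayed the highest at each time. Its annotation (chromosome 10, 127290793 to 127296291) overlaps that of Mars at one end, so reads could be shared between them. Nupr1 had 144% and 147% of its 0 h share at 4 h (0.53 ± 0.44, adjusted p = 0.368 in WT, 0.56 ± 0.44, adjusted p = 0.362 in cKO), and passed with the culture as a block under both labels (adjusted p = 0.0107 and adjusted p = 0.0319).

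Of the stress effectors, Chac1, a glutathione-degrading enzyme, never exceeded 1.83 CPM in the RNA-seq. It went from 0.745, 0.826 and 1.83 to 0, 0 and 0.300 CPM with the cKO label (-3.40 ± 1.16, adjusted p = 0.0343) and from 0.472, 0.506 and 0.178 to 0.126, 0 and 0 CPM with the WT label (-2.81 ± 1.41, adjusted p = 0.122; with the block adjusted p = 0.0422). These fitted changes rest on libraries with 0 counts at 4 h and depend on the prior count, and the cKO call was lost in 6 of 9 cases of a left-out library or culture (adjusted p up to 0.165 over the alternatives tried). Sesn2 (a leucine sensor) and Stc2 (a secreted glycoprotein) were under 4 CPM throughout the RNA-seq and did not pass the test.

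**Figure D3:**
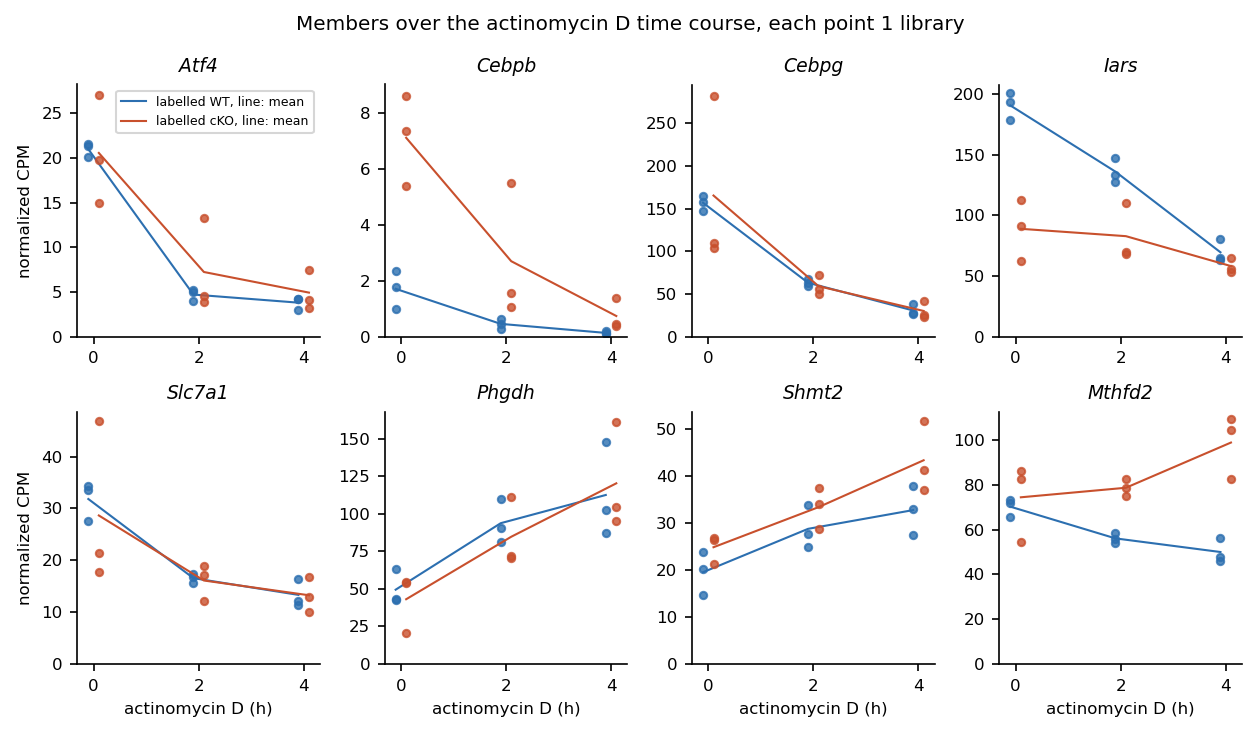
Normalized CPM of 8 members at 0, 2 and 4 h of actinomycin D; each point is 1 library, lines join the means of the 3 libraries of a genotype label, and axes start at 0. Atf4, Cebpb, Cebpg and Slc7a1 drop steeply by 2 h under both labels, Iars starts lower with the cKO label, and the means of Mthfd2 go opposite ways under the labels.

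Of the 6 asparagine, serine and one-carbon genes, 3 rose and 1 (Mthfd2) fell with the WT label and 5 rose with the cKO label under TMM scaling. Phgdh (chromosome 3, 98313171 to 98339969), the first enzyme of serine synthesis, rose from 62.98, 42.3 and 43.2 to 148, 102 and 87.2 CPM with the WT label (1.18 ± 0.33, adjusted p = 0.00836) and from 20.8, 54.4 and 54.2 to 105, 161 and 95.2 CPM with the cKO label (1.48 ± 0.33, adjusted p = 0.00284). In both, all 4 h libraries were above all 0 h libraries. Psph, the last step of the same pathway, rose to 293, 359 and 310.0 CPM (0.77 ± 0.20, adjusted p = 0.0051) and 272, 291 and 278 CPM (0.73 ± 0.20, adjusted p = 0.0107; -0.026 when scaled to ribosomal protein genes). Shmt2, the mitochondrial serine hydroxymethyltransferase, rose from 23.8, 20.1 and 14.6 to 37.9, 32.9 and 27.4 CPM (0.75 ± 0.21, adjusted p = 0.0101) and from 26.8, 26.4 and 21.3 to 41.2, 51.8 and 37.01 CPM (0.80 ± 0.21, adjusted p = 0.00872). In WT all 3 calls were lost by library size alone, on log2(TPM + 1) and with ribosomal protein scaling. The lowest WT values over the alternatives were 0.45 for Phgdh, 0.040 for Psph and 0.0032 for Shmt2. With the cKO label the lowest were 0.70 for Phgdh and 0.082 for Shmt2.

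Other rises passed the test under TMM scaling with the cKO label. Psat1 (0.78 ± 0.25, adjusted p = 0.0253), Asns (0.70 ± 0.20, adjusted p = 0.014) and the proline enzyme Aldh18a1 (0.72 ± 0.25, adjusted p = 0.0347) rose there, the latter pair with the opposite sign when scaled to ribosomal protein genes (-0.057 and -0.057). In libraries labelled WT the changes of Psat1 (0.61 ± 0.25, adjusted p = 0.0593), Asns (0.26 ± 0.20, adjusted p = 0.326) and Aldh18a1 (0.44 ± 0.25, adjusted p = 0.169) did not pass. Among the synthetases Wars (1.01 ± 0.30, adjusted p = 0.0167), Sars (0.87 ± 0.29, adjusted p = 0.0294), Yars (0.66 ± 0.19, adjusted p = 0.0162) and Mars (0.62 ± 0.20, adjusted p = 0.0238) rose with the cKO label; ribosomal protein scaling turned Yars to -0.098 and Mars to -0.12. With the WT label Eprs (0.49 ± 0.17, adjusted p = 0.0278) and the transporter gene Slc7a5 (0.49 ± 0.16, adjusted p = 0.0193) rose, and turned to -0.24 and -0.24 with ribosomal protein scaling and to -0.022 and -0.027 on log2(TPM + 1). With the culture as a block, Psat1 (adjusted p = 0.00225), Pycr1 (adjusted p = 0.0267), Slc3a2 (adjusted p = 0.0191) and Slc7a11 (adjusted p = 0.0194) also rose in WT, and Pycr1 (adjusted p = 0.0174), Aars (adjusted p = 0.0154) and Cars (adjusted p = 0.0422) in cKO. Whether a rise under 1 label differs from that under the other was tested only as a slope, given further on.

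The number of rises changed with the scaling. Scaled by library size alone, 0 members rose in WT and 1 in cKO; on log2(TPM + 1) with limma, 0 and 1; scaled to ribosomal protein genes, 0 and 0, with 6, 8 and 9 falling in WT and 6, 6 and 10 in cKO. The same scalings moved the median of all genes to -0.33, -0.32 and -0.72 in WT and to -0.15, -0.21 and -0.64 in cKO. Rises over all genes numbered 698, 342 and 45 in WT and 515, 278 and 32 in cKO. Fitted on the 6 compared libraries alone, 14 members rose in WT and 1 in cKO, where 3 fell. Over all genes, 3635 rose in WT and 149 in cKO, where 1298 fell. With the culture as a block, 10 members rose and 8 fell in WT, beside 3332 and 4084 of all genes. The cKO count of rises was 1 without replicate 2 at 4 h, 4 without replicate 1 at 4 h and 14 without replicate 3 at 0 h; without replicate 1 at 0 h it was 7, and Sars then stood at 0.49, adjusted p = 0.0109, Wars at 0.67, adjusted p = 0.04 and Asns at 0.46, adjusted p = 0.0408. Over all genes, the rises in these 4 cKO fits numbered 887, 1276, 1898 and 1385. The WT count was 0 without the whole culture of replicate 2, beside 825 rises over all genes.

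Under TMM scaling a transporter and a synthetase fell. Slc7a1, the arginine and lysine transporter, fell from 33.6, 27.6 and 34.3 to 11.4, 12.2 and 16.4 CPM with the WT label (-1.25 ± 0.31, adjusted p = 0.00365) and from 46.8, 21.5 and 17.7 to 12.99, 10.05 and 16.8 CPM with the cKO label (-1.11 ± 0.31, adjusted p = 0.0111); without cKO replicate 1 at 0 h the latter was -0.56, adjusted p = 0.1. Iars was the one synthetase that fell under this scaling, from 200.5, 178 and 193 through 128, 147 and 133 to 80.5, 64.8 and 63.4 CPM with the WT label (-1.45 ± 0.22, adjusted p = 5.81e-05). With the cKO label it went from 62.7, 91.5 and 113 to 64.9, 53.6 and 56.2 CPM (-0.61 ± 0.22, adjusted p = 0.0398). The 0 h and 4 h libraries labelled cKO overlapped, and this call was lost in 6 of 9 cases of a left-out library or culture, with only the compared libraries and without the low-count filter (adjusted p up to 0.213). Its levels at 4 h overlapped between labels, with the lowest WT library at 63.4 CPM and the highest cKO library at 64.9 CPM. With ribosomal protein scaling, Nars (-0.66, adjusted p = 0.00622) and Tars (-0.70, adjusted p = 0.0402) also fell in WT. In cKO, Gars (-0.66, adjusted p = 0.0393), Nars (-0.51, adjusted p = 0.0328), Slc3a2 (-0.62, adjusted p = 0.0339) and Slc7a5 (-0.65, adjusted p = 0.0159) fell with that scaling. On log2(TPM + 1), Nars fell in WT (-0.45, adjusted p = 0.0342).

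Mthfd2 (chromosome 6, 83305704 to 83326011), the mitochondrial one-carbon dehydrogenase, had estimated changes of opposite sign under the labels with TMM scaling. Its difference in slope between labels, given further on, passed the test only with the culture as a block (adjusted p = 0.0406). With the WT label it fell from 71.8, 65.9 and 73.2 to 46.2, 56.3 and 47.6 CPM (-0.49 ± 0.18, adjusted p = 0.035), and leaving out any 1 library or culture ended this call. With the cKO label it was at 54.5, 82.7 and 86.2 CPM at 0 h and 82.6, 105 and 109 CPM at 4 h (0.41 ± 0.18, adjusted p = 0.0884; with the block adjusted p = 0.0219). At 4 h all 3 libraries labelled cKO were above all 3 labelled WT, a contrast that was not tested.

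**Figure D4:**
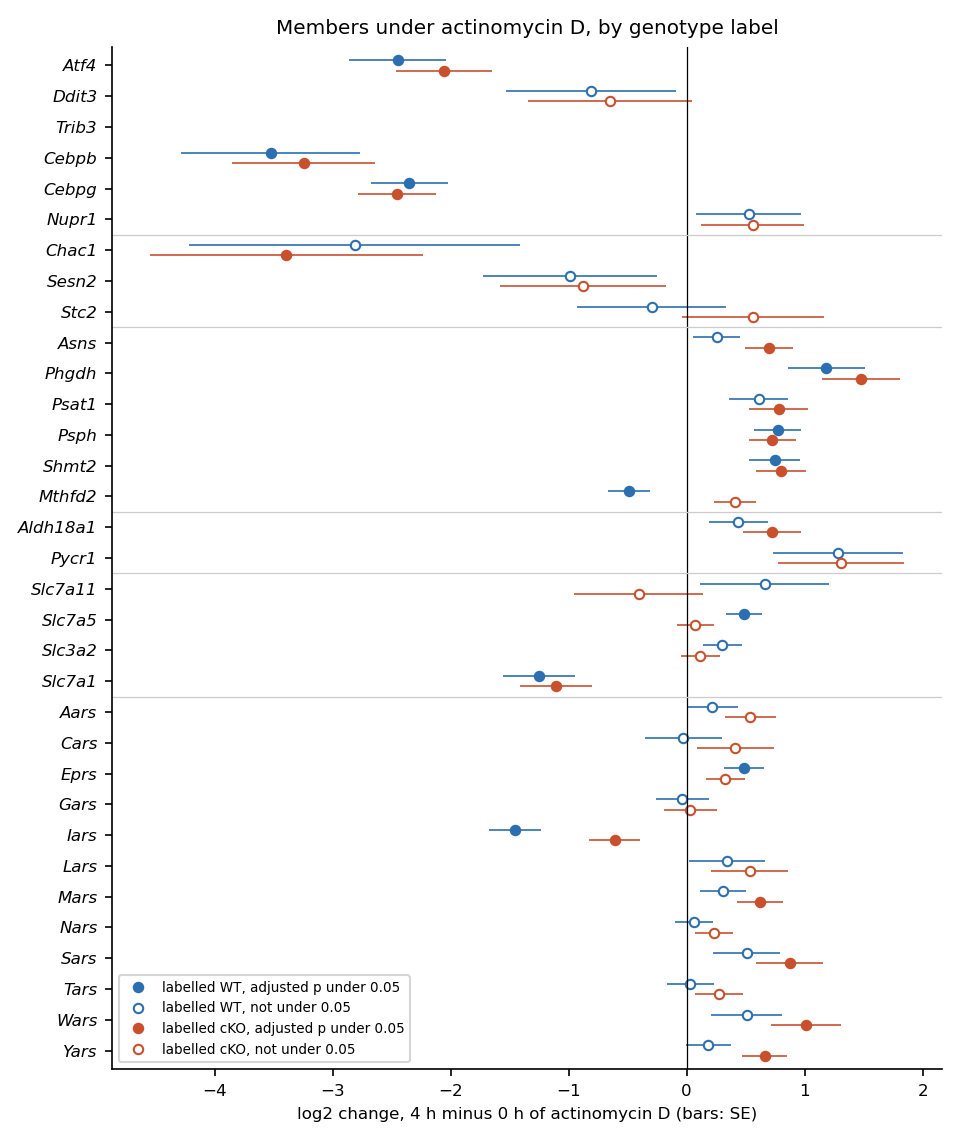
Log2 change from 0 to 4 h of actinomycin D for each member tested (rows, grouped by role; Trib3 was not tested), by genotype label (colour), with SE as bars and filled points at an adjusted p under 0.05. The largest falls are those of Cebpb, Chac1, Cebpg and Atf4, and most serine, proline and synthetase genes lie right of 0 under TMM scaling.

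The difference in decay between labels was tested as the genotype term of a straight line through the 3 times, in log2 per hour. In edgeR no member passed, and of all genes tested 0.00713% had a higher slope in cKO and 0% a lower one. DESeq2 called no member either, and 45 genes higher and 19 lower in all. An unadjusted p under 0.05 was reached by 2 members, Mthfd2 (0.23 ± 0.060 log2 per hour, adjusted p = 0.206) and Iars (0.21 ± 0.079, adjusted p = 0.444). Of all genes tested, 8.44% reached it. With the culture as a block, Mthfd2 passed (0.23 log2 per hour, adjusted p = 0.0406), where 65 of all genes had a higher slope and 24 a lower one. The slope of Atf4 differed by 0.11 ± 0.15, adjusted p = 0.921, that of Cebpg by -0.026 ± 0.11, adjusted p = 0.98 and that of Ddit3 by 0.043 ± 0.23, adjusted p = 0.984. The median over the members was 0.0455 log2 per hour, beside 0.0166 over all genes; leaving out 1 library gave 0.0058 (without WT replicate 2 at 4 h) to 0.1044 (without cKO replicate 3 at 0 h). A slope that misses the threshold does not show equal decay.

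Of all genes tested, 15.6% rose and 24.2% fell with the WT label and 12.1% and 18% with the cKO label. Among the other pathway genes, the eIF2 kinase, eIF2B and phosphatase list held 1 rise and 7 falls of 13 with the WT label and 0 and 2 with the cKO label. Ppp1r15b, a subunit that directs phosphatase to eIF2, fell under both (-2.72 ± 0.27, adjusted p = 7.48e-07 and -2.66 ± 0.27, adjusted p = 1.58e-06). Of 25 other ATF4 targets, 4 rose and 5 fell in WT and 2 rose and 4 fell in cKO; Cth rose (1.07 ± 0.21, adjusted p = 0.000681 and 0.69 ± 0.20, adjusted p = 0.0168) and Slc38a2 fell (-2.96 ± 0.27, adjusted p = 4.16e-07 and -1.26 ± 0.26, adjusted p = 0.00152) in both. Of the 11 other cytosolic synthetase genes, 2 rose and 3 fell in WT and 4 rose and none fell in cKO, with Hars (0.54 ± 0.17, adjusted p = 0.0172 and 0.70 ± 0.17, adjusted p = 0.00476) and Dars (0.76 ± 0.17, adjusted p = 0.00237 and 0.51 ± 0.17, adjusted p = 0.0341) rising in both. Of 17 mitochondrial synthetases, 1 rose and 4 fell in WT and 2 rose and 2 fell in cKO; Cars2 rose (1.42 ± 0.35, adjusted p = 0.00395 and 0.93 ± 0.33, adjusted p = 0.0438) and Mars2 (-2.44 ± 0.28, adjusted p = 4.17e-06 and -1.54 ± 0.27, adjusted p = 0.000328) and Pars2 (-3.63 ± 0.56, adjusted p = 7.07e-05 and -2.73 ± 0.51, adjusted p = 0.000712) fell in both. In the endoplasmic reticulum list of 17, 5 rose and 2 fell in WT and 4 rose and 2 fell in cKO; Calr rose (0.91 ± 0.18, adjusted p = 0.000579 and 0.91 ± 0.18, adjusted p = 0.000934) and Herpud1 fell (-3.79 ± 0.51, adjusted p = 1.82e-05 and -2.85 ± 0.48, adjusted p = 0.000267).

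The third comparison asked which members were enriched with the m6A antibody. Of 33 tested, 5 were higher and 7 lower in the pull-down than in its input, where 6.06% and 14.3% of 14167 genes were. The median was -0.0044 over members and 0.0096 over all genes. Atf4 was at 27.3, 31.8 and 31.6 CPM in the inputs and 34.4, 27.02 and 30.9 CPM in the pull-downs (0.021 ± 0.12, adjusted p = 0.927). Its inputs and pull-downs overlapped.

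Sesn2 had the largest enrichment that passed, from 41.96, 43.1 and 49.5 CPM in the inputs to 64.1, 58.9 and 65.6 CPM in the pull-downs (0.48 ± 0.091, adjusted p = 0.0053). Ddit3 went from 12.9, 15.2 and 14.6 to 17.8, 20.8 and 18.2 CPM (0.41 ± 0.12, adjusted p = 0.0444) and Cebpg from 40.9, 40.3 and 39.4 to 60.5, 47.5 and 47.5 CPM (0.37 ± 0.11, adjusted p = 0.0428). Eprs went from 375, 339 and 354 to 476, 471 and 429 CPM (0.37 ± 0.072, adjusted p = 0.0068) and Yars from 101, 92.5 and 90.2 to 119, 116 and 112 CPM (0.29 ± 0.074, adjusted p = 0.0236). In each of the 5, all pull-downs were above all inputs. The calls of Sesn2 and Eprs stood with every library left out in turn, while those of Ddit3 (6 of 6), Cebpg (5 of 6) and Yars (5 of 6) were lost in most cases, with adjusted p up to 0.122, 0.133 and 0.102.

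Biosynthetic genes lay on the lower side. Of the 6 asparagine, serine and one-carbon genes, 4 were lower and none higher (median -0.44). Phgdh was at 121, 109.9 and 113 CPM in the inputs and 75.6, 66.8 and 74.1 CPM in the pull-downs (-0.67 ± 0.079, adjusted p = 0.00033). Asns was at 181, 143 and 158 and 110.4, 103 and 109 CPM (-0.58 ± 0.093, adjusted p = 0.00212), and Psph at 203, 228 and 201 and 131, 158 and 136 CPM (-0.57 ± 0.092, adjusted p = 0.00222). The groups did not overlap for any of the 3, and each call stood with every library left out. On log2(TPM + 1) none of the 3 passed: Phgdh was at -0.19 (adjusted p = 0.061), Asns at -0.096 (adjusted p = 0.378) and Psph at -0.096 (adjusted p = 0.355).

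Slc3a2 was at 191, 202 and 199 CPM in the inputs and 139, 159.6 and 147 CPM in the pull-downs (-0.41 ± 0.075, adjusted p = 0.00462). Shmt2 (-0.32 ± 0.084, adjusted p = 0.0271) and Mars (-0.32 ± 0.072, adjusted p = 0.0139) were lower by less, and on log2(TPM + 1) these 3 turned to 0.064, 0.16 and 0.16. Cebpb had the largest difference, from 0.916, 3.21 and 1.41 to 0.153, 0.663 and 0.313 CPM (-2.29 ± 0.61, adjusted p = 0.028), at levels of at most 3.21 CPM. Leaving out 1 library ended its call in 4 of 6 cases. With the replicate block, Iars (-0.24, adjusted p = 0.000371) and Mthfd2 (-0.20, adjusted p = 0.0237) were lower as well and Slc7a1 higher (0.34, adjusted p = 0.00843). The split between higher and lower changed with the scaling: 8 higher and 4 lower by library size alone and 24 higher and 1 lower on log2(TPM + 1), with medians of 0.21 and 0.44 over members and 0.22 and 0.40 over all genes. Over all genes, 3627 were higher and 1293 lower by library size alone, and 7236 and 770 on log2(TPM + 1).

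The fourth comparison set RNA bound by the YTHDF2 antibody against input and against IgG. These 2 contrasts share the YTHDF2 libraries. Against input, 3 members were higher and 7 lower, where 30.7% and 17.5% of 14255 genes were, and the median was -0.37 over members and 0.23 over all genes. Against IgG, 1 member was higher and none lower (14.3% and 0.33% of all genes), and DESeq2 called 1 lower, beside 801 of all genes. At an unadjusted p under 0.05 the counts were 2 and 0, where 25.9% of all genes passed in either direction. With the replicate number as a block the counts were 7 and 16 against input and 5 and 5 against IgG, where Aldh18a1, Cebpb, Psat1 and Trib3 joined Cebpg and where Gars, Iars, Mars, Shmt2 and Tars were lower. Over all genes the block gave 5549 and 3526 against input and 3134 and 1268 against IgG. On log2(TPM + 1) the member counts were 8 and 0 against input, with medians of 0.017 over members and 0.45 over all genes, and 2 and 0 against IgG. The counts over all genes were 5980 and 1233 against input and 1885 and 17 against IgG.

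Cebpg was the member higher in every pull-down comparison. It was at 41.2, 41.4 and 35.9 CPM in the inputs, 22.4, 28.9 and 25.2 CPM with IgG and 53.8, 54.02 and 57.1 CPM with YTHDF2. All 3 YTHDF2 libraries were above all inputs (0.48 ± 0.15, adjusted p = 0.0216) and above all IgG libraries (1.11 ± 0.15, adjusted p = 0.000317). With its m6A enrichment it was the 1 member among 361 of 13637 genes (2.65%) that were higher in the m6A pull-down and over both YTHDF2 controls. The call against IgG stood in all 8 alternative settings and with each library left out. However, 1 of the 8, titles in place of descriptions, sets the libraries described as Input against IgG. It does not test the libraries described as YTHDF2. All 3 inputs were above all IgG libraries as well. The call against input was lost with DESeq2, RLE factors or only the 6 compared libraries. It was also lost in 2 of 6 cases of a left-out library (adjusted p up to 0.14 over the alternatives).

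Ddit3 and Iars were higher than input but not than IgG. Ddit3 was at 17.1, 18.8 and 18.2 CPM in the inputs, 19.9, 29.3 and 26.4 CPM with IgG and 22.1, 35.6 and 27.7 CPM with YTHDF2 (0.66 ± 0.21, adjusted p = 0.0214 against input; 0.18 ± 0.21, adjusted p = 0.618 against IgG). Iars was at 198, 121 and 126, 509, 259.7 and 295 and 350.0, 227 and 247 CPM in the same order (0.89 ± 0.29, adjusted p = 0.0226; -0.37 ± 0.28, adjusted p = 0.442). Each IgG library held more Iars than the YTHDF2 library of the same number, and with the block Iars was lower than IgG (-0.33, adjusted p = 0.0481). Against input, the Ddit3 call was lost with DESeq2, RLE factors or only the compared libraries and in 3 of 6 cases of a left-out library (adjusted p up to 0.103), and the Iars call with RLE factors and in 3 of 6 cases (adjusted p up to 0.0887). Atf4 was at 54.6, 39.4 and 38.5, 32.2, 47.4 and 38.02 and 26.97, 33.3 and 34.3 CPM (-0.49 ± 0.20, adjusted p = 0.0611; with the block adjusted p = 0.00997; -0.32 ± 0.20, adjusted p = 0.348 against IgG).

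The members lower than input were again mostly biosynthetic and transport genes. Shmt2 was at 37.6, 38.1 and 22.6 CPM in the inputs and 21.8, 16.05 and 15.6 CPM with YTHDF2 (-0.88 ± 0.23, adjusted p = 0.00832), and Phgdh at 127, 91.8 and 81.7 and 72.8, 44.1 and 47.8 CPM (-0.87 ± 0.27, adjusted p = 0.0198). The proline enzyme Pycr1 was at 6.54, 9.33 and 6.68 and 4.62, 4.20 and 2.54 CPM (-0.99 ± 0.28, adjusted p = 0.012). Slc7a5 was at 12.3, 12.2 and 7.76 and 7.28, 5.65 and 4.04 CPM (-0.93 ± 0.27, adjusted p = 0.0136), and its partner Slc3a2 at 189.9, 185 and 171 and 117, 126 and 113 CPM (-0.61 ± 0.14, adjusted p = 0.00356). Wars went from 305, 233 and 268 to 179, 165 and 141 CPM (-0.74 ± 0.18, adjusted p = 0.00502) and Nars from 418, 274 and 311 to 256, 206 and 232 CPM (-0.53 ± 0.19, adjusted p = 0.0389). Leaving out 1 library ended the call against input of Nars in 4 of 6 cases, of Phgdh in 3, of Slc7a5 in 2 and of Pycr1 in 1. None of the 7 passed against IgG without the block; with it, Shmt2 was lower than IgG (-0.50, adjusted p = 0.0142).

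Trib3, low in the RNA-seq, could be tested here. It was at 1.92, 2.00 and 0.722 CPM in the inputs, 1.15, 2.07 and 0.442 CPM with IgG and 3.21, 5.70 and 2.02 CPM with YTHDF2. Each YTHDF2 library was above the input and the IgG library of the same number. The differences were 1.20 ± 0.54, adjusted p = 0.0857 against input and 1.50 ± 0.55, adjusted p = 0.102 against IgG, and both passed with the replicate block (adjusted p = 0.00197 and adjusted p = 0.000576).

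**Figure D5:**
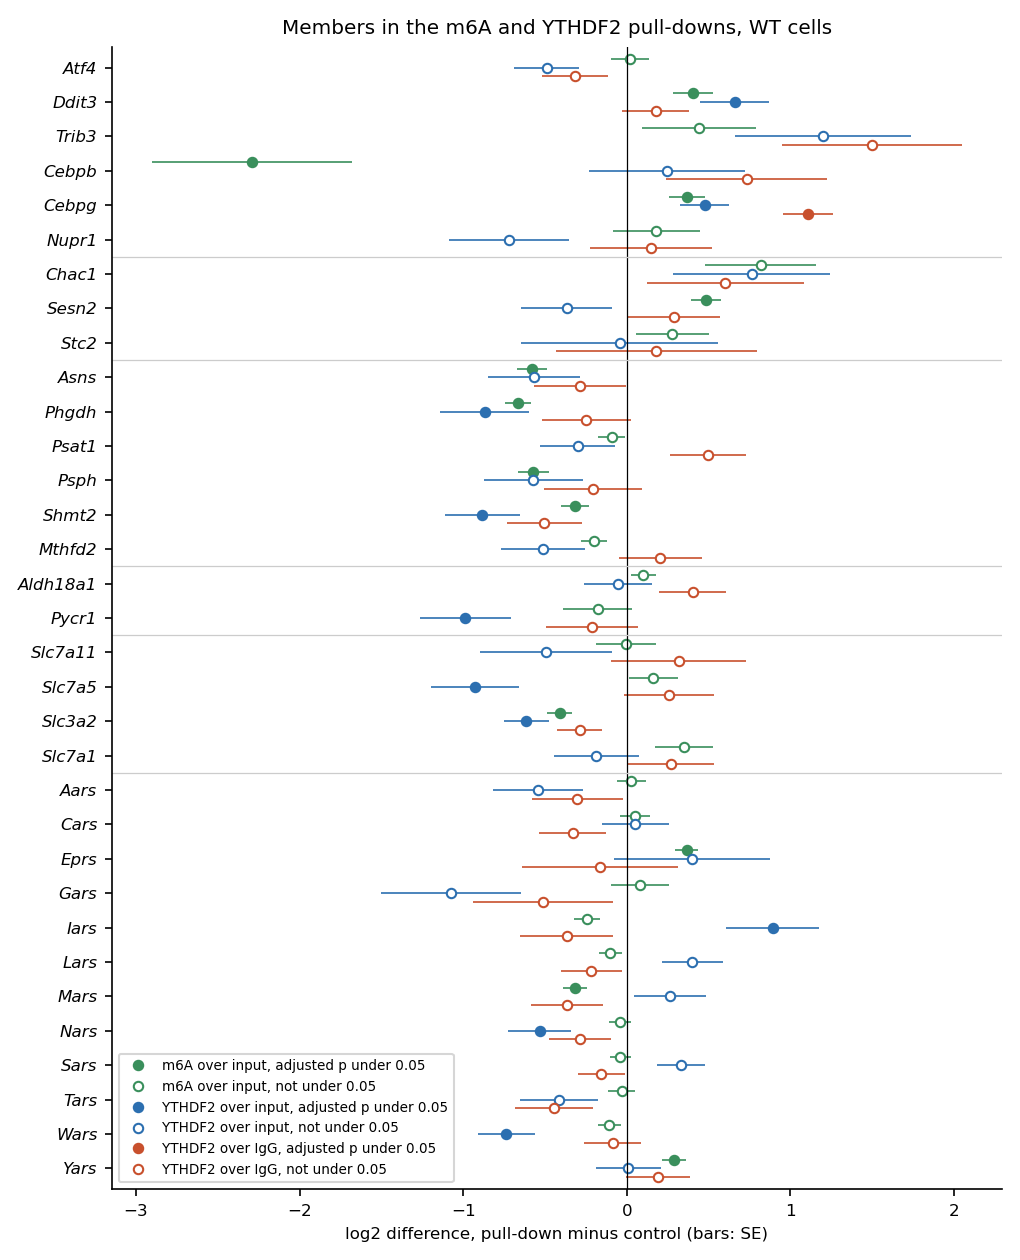
Log2 difference of each member between pull-down and control in Nestin-WT cells (colour: the 3 comparisons; bars: SE; filled: adjusted p under 0.05), grouped by role. Cebpg is filled and right of 0 in all 3 comparisons, and Phgdh and Shmt2 are left of 0 in all 3, filled against the m6A and YTHDF2 inputs, under TMM scaling.

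The other lists were read in the same comparisons. Of all genes, 6.06% were higher and 14.3% lower in the m6A pull-down. With YTHDF2, 30.7% and 17.5% were so against input and 14.3% and 0.33% against IgG. Of 11 other cytosolic synthetase genes, 7 were lower in the m6A pull-down and 6 in the YTHDF2 pull-down than in input, none higher; Eef1e1, a scaffold of the multisynthetase complex, was lower in both (-0.87 ± 0.083, adjusted p = 8.55e-05 and -1.52 ± 0.21, adjusted p = 0.000144). Of 17 mitochondrial synthetases, 7 were higher and 1 lower than input with YTHDF2 and 5 were higher than IgG, led by Fars2 (1.58 ± 0.21, adjusted p = 0.000126 and 2.28 ± 0.22, adjusted p = 2.33e-05) and Mars2 (1.87 ± 0.18, adjusted p = 2.28e-05 and 1.84 ± 0.18, adjusted p = 3.24e-05). Among 13 genes of eIF2 kinases, eIF2B and phosphatase, 7 were higher and 2 lower than input and 4 higher than IgG; Ppp1r15b was higher in the m6A pull-down (0.39 ± 0.078, adjusted p = 0.00717) and over both YTHDF2 controls (0.85 ± 0.17, adjusted p = 0.0015 and 1.83 ± 0.17, adjusted p = 2.27e-05). Of the chaperone and sensor genes, Xbp1 was likewise higher in all 3 (0.58 ± 0.13, adjusted p = 0.0147, 1.81 ± 0.27, adjusted p = 0.000285 and 1.89 ± 0.27, adjusted p = 0.000448).

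If the titles and not the descriptions named the YTHDF2 series, the Input and YTHDF2 values above would change places. Against the m6A inputs, over 13637 genes, the libraries described as Input had a Spearman correlation of 0.95 to 0.953, those described as YTHDF2 0.904 to 0.913 and IgG 0.921 to 0.928. These are correlations across genes within pairs of libraries, given as a description.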

How the data were processed

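Counts and TPM were deposited by the authors for 33 libraries in 11 groups of 3. The submitters' processing notes name bcl2fastq 2.17.1.14, Trimmomatic 0.32, STAR 2.5.2a and the build GRCm38. How reads were counted, with which strand setting and annotation, is not given in the sources used here. Per the labels' protocols, RNA-seq libraries followed SMART-seq2 and pull-down libraries a modified SMART-seq3. The deposited counts were whole numbers and entered every main test; the deposited TPM values gave levels per length and 1 alternative, with a pseudocount of 1.

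Under R 4.3.3, edgeR 4.0.16 fitted each assay alone over all its libraries (quasi-likelihood, TMM, filterByExpr), leaving 12, 14, 4 and 6 residual degrees of freedom for groups, slopes, m6A and YTHDF2. The slope test used hours as a number. P-values are two-sided, adjusted by Benjamini-Hochberg over all genes tested, with a threshold of 0.05; "±" after a log2 value is the SE. CPM are counts relative to the TMM-scaled library size. The labels do not say whether replicates came from separate animals, so p-values measure the spread between these libraries.

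Values in each library were given for members called in a comparison or, beyond 8, for those with the largest changes, beside Atf4 and Ddit3; of other lists, the called genes with the smallest p were named. The members and lists were chosen with earlier results of these data known. The mitochondrial list and the list of other ATF4 targets share Nars2. Promoter windows and coordinates came from RefSeq (GRCm38.p6), and some promoter sequence is not reported here.

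Same-numbered libraries deviated together within WT times (residual correlation 0.177 to 0.381), cKO times (0.339 to 0.796), the m6A series (0.109 to 0.504) and the YTHDF2 series (0.409 to 0.705). Numbers were therefore taken to pair libraries within these sets, from the data and not the labels. The main tests, the slope test included, did not use this pairing, and some members that did not pass there passed when it was used. The fit that used it, with the number or culture as a block, was 1 of the alternatives. The others were RLE factors, DESeq2 1.42.0, limma 3.58.1 on log2(TPM + 1), ribosomal protein scaling, no low-count filter, library size alone, only the compared libraries, titles in place of descriptions, and each library or culture left out.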

Additional observations from a re-analysis of the deposited data

How the results depend on the processing

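The counts of members called depended on how libraries were scaled and pooled; the cause was not tested. At 0 h, 2 higher members became 1 with only the 6 compared libraries and 1 with ribosomal protein scaling. Over all genes, 1082 higher became 1090 and 524 in these fits. Leaving out libraries or cultures gave 0 to 5 higher and 0 to 6 lower members. For WT at 4 h, 5 higher members became 14 (compared libraries only), 10 (replicate block) and 0 (library size alone, limma on log2(TPM + 1), ribosomal protein scaling). Over all genes, 2194 higher became 3635 (compared libraries only), 3332 (replicate block), 698 (library size alone), 342 (limma) and 45 (ribosomal protein scaling). Left-out libraries or cultures gave 0 to 5 higher and 4 to 5 lower members. For cKO at 4 h, 10 higher members became 1 (compared libraries only, library size alone, limma on log2(TPM + 1)) and 0 (ribosomal protein scaling), and 6 lower became 3 and 10 with the first and the last of these; left-out libraries gave 1 to 16 higher and 3 to 5 lower. Over all genes, 1694 higher in cKO became 149 (compared libraries only), 515 (library size alone), 278 (limma) and 32 (ribosomal protein scaling). The 2528 lower became 1298 and 5427 with the first and the last of these. The slope test gave 0 members in both directions in each left-out case and 1 higher with the replicate block. Over all genes, the slope test with the block gave 65 higher and 24 lower.

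In the m6A pull-down, 5 higher members became 8 by library size alone and 24 with limma on log2(TPM + 1), and 7 lower became 4 and 1. Over all genes, 858 higher became 3627 and 7236, and 2023 lower became 1293 and 770. Left-out libraries gave 2 to 3 higher and 4 to 7 lower members. For YTHDF2 against input, 3 higher became 1 (compared libraries only, DESeq2), 0 (RLE factors), 5 (library size alone), 8 (limma on log2(TPM + 1)), 7 (replicate block) and 7 (titles); 7 lower became 14 (compared libraries only), 13 (DESeq2), 0 (limma on log2(TPM + 1)), 16 (replicate block) and 3 (titles). Over all genes, 4373 higher became 3398 (compared libraries only), 3740 (DESeq2), 3545 (RLE factors), 4744 (library size alone), 5980 (limma) and 5549 (replicate block). The 2490 lower became 3206 (compared libraries only), 3402 (DESeq2), 1233 (limma) and 3526 (replicate block). Left-out libraries gave 0 to 3 higher and 4 to 9 lower members. Against IgG, 1 higher became 2 (limma on log2(TPM + 1)), 5 (replicate block) and 6 (titles), and 0 lower became 1 (DESeq2), 5 (replicate block) and 4 (titles). Over all genes, 2040 higher became 1885, 3134 and 2422, and 47 lower became 801, 1268 and 2873, in the same orders. Left-out libraries gave 1 to 2 higher and 0 lower members. The replicate block ended no call of a member in any comparison. Across genotype labels same-numbered libraries did not deviate together (residual correlation -0.207 to 0.077). With the number as a block there, the count at 0 h was 3 higher and 4 lower, with Nupr1 (1.11, adjusted p = 0.0101) and Lars (-0.95, adjusted p = 0.0359) added. Over all genes that fit gave 1420 higher and 1930 lower.

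Values with the opposite sign and a call in either fit were as follows, as log2 changes. With ribosomal protein scaling these were Eprs -0.24, Nars -0.66, Slc7a5 -0.24 and Tars -0.70 for WT at 4 h, and Aldh18a1 -0.057, Asns -0.057, Gars -0.66, Mars -0.12, Nars -0.51, Psph -0.026, Slc3a2 -0.62, Slc7a5 -0.65 and Yars -0.098 for cKO. With limma on log2(TPM + 1) they were Eprs -0.022, Nars -0.45 and Slc7a5 -0.027 for WT at 4 h, and Iars 0.23, Lars 0.37, Mars 0.16, Mthfd2 0.27, Nars 0.43, Psat1 0.38, Sars 0.43, Shmt2 0.16, Slc3a2 0.064, Tars 0.44 and Wars 0.37 in the m6A pull-down. Titles in place of descriptions, which by construction exchange Input and YTHDF2, gave Cebpg -0.48, Ddit3 -0.66, Iars -0.89, Nars 0.53, Phgdh 0.87, Pycr1 0.99, Shmt2 0.88, Slc3a2 0.61, Slc7a5 0.93 and Wars 0.74 against input and Pycr1 0.77 and Wars 0.65 against IgG.

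Depth limits the lowest members: Trib3, Chac1, Stc2, Sesn2 and Cebpb rest on few counts in the RNA-seq, so small changes in them were not detectable at this depth.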

Other observations

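Some members stood at very different levels in untreated cells of the 3 assays, whose tables were scaled separately and whose libraries were made by different methods, so no test was made between them. Sesn2 was at 1.82, 0.506 and 0.356 CPM in the RNA-seq libraries labelled WT at 0 h, at 41.96, 43.1 and 49.5 CPM in the m6A inputs and at 28.97, 42.3 and 23.8 CPM in the YTHDF2 series inputs. Cebpg went the other way, with 147, 165 and 158 CPM, 40.9, 40.3 and 39.4 CPM and 41.2, 41.4 and 35.9 CPM. The transporter gene Slc7a5 was at 45.9, 43.9 and 43.9 CPM, 12.7, 16.1 and 15.04 CPM and 12.3, 12.2 and 7.76 CPM.

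Members with and without the composite element in their window are set side by side as a description. Of the 10 tested members that hold it, 2 rose and 2 fell from 0 to 4 h with the cKO label, and of 17 whose window lacks it, 7 rose and 4 fell (12.1% and 18% of all genes did), with median log2 changes of 0.4059 and 0.4094. With the WT label 0 rose and 1 fell of the 10, and 4 rose and 5 fell of the 17 (15.6% and 24.2% of all genes did), with medians of 0.2011 and 0.3026. At 0 h the medians of the log2 difference between labels were -0.0545 and 0.0193.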
